A study of Mus musculus with 44 samples.

Results

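Trem2 and its adaptors Tyrobp and Hcst were higher in 5xFAD than in NonTg females, in brain cells sorted for CD11b and CD45. The differences were 1.82 to 2.65 on the log2 scale over the 3 Trem2 genotypes. Treml2, a neighbour of Trem2 in the same gene cluster, was higher by 1.97 to 2.10. The other Trem family genes were near the limit of detection or varied widely between libraries, and no member passed the test between Trem2 genotypes within 5xFAD mice of either sex. The members were 8 genes, taken by name from the 37583 genes of each table. They were 6 receptors, Trem1, Trem2, Trem3, Treml1, Treml2 and Treml4, and the adaptors Tyrobp and Hcst.

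Receptors of the Trem family (triggering receptors expressed on myeloid cells) carry 1 immunoglobulin-like domain outside the cell, and several of them have a short cytoplasmic tail with no signalling motif of their own. These signal through a partner in the membrane. Tyrobp, also called DAP12, carries a tyrosine motif that recruits the kinase Syk once phosphorylated, and Hcst, also called DAP10, carries a different tyrosine motif that recruits phosphoinositide 3-kinase. In the brain, Trem2 is a lipid-sensing receptor of microglia, and variants of human TREM2 and loss of TYROBP are linked to dementia.

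The series measured polyadenylated RNA of cells sorted for CD11b and CD45 from mouse brain at 8 months of age. The female table held 5 NonTg libraries with normal Trem2 (labelled NonTg;Trem2+/+), 6 of 5xFAD with Trem2+/+, 9 of 5xFAD with T96K/+ and 7 of 5xFAD with T96K/T96K, where T96K is a Trem2 allele that replaces threonine 96. The male table held 5, 6 and 6 libraries of the same 5xFAD genotypes, and males without the 5xFAD transgenes were not analysed here. 5xFAD is a transgenic amyloid model in which human transgenes with familial Alzheimer mutations are driven by the neuronal Thy1 promoter. The sources used here do not say how the T96K allele was made. RPKM does not show which codon a transcript carries, so the level of Trem2 is no check of the genotype labels.

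The values were RPKM (reads scaled to gene length and library size), scaled by the authors separately in each table, so levels are compared only within a table. The 44 libraries held 5.89 to 42.4 M (mega) reads assigned to genes. Of these, 34 held 5.89 to 15.99 M and formed a lower depth set. The other 10 held 26.5 to 42.4 M and formed a higher depth set, with 1 or 2 libraries in each group. The higher depth set was exactly the highest library numbers, 25 and above in females and 21 and above in males. Depth and library number can therefore not be told apart. Microglia markers were detected throughout: the summed RPKM of P2ry12, Tmem119, Cx3cr1, Sall1, Fcrls, Csf1r and Aif1 lay between 1623 and 7122, and none of the 7 was at 0 in any whole group. T and NK cell markers, which matter here because Hcst is best known from the receptor NKG2D of those cells, summed to at most 4.36 RPKM in any library. Neutrophil markers (8 genes) summed to 33.3 to 6134 RPKM in female and 1733 to 8276 RPKM in male libraries. In some libraries they exceeded the microglia sum, as in NonTg library 24 (2766 against 1623). Sums over different genes do not give shares of cells. In 1 of 27 libraries of the female table, labelled T96K/+ 22, Y-linked genes exceeded Xist, and leaving it out changed no call of a member.

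The receptors formed 1 cluster of 6 genes over 134.6 kb of chromosome 17 (mm9), all on the + strand. In order these were Trem1 (ENSMUSG00000042265, 48371903 to 48386091), Trem3 (ENSMUSG00000041754, 48386944 to 48398207), Treml4 (ENSMUSG00000051682, 48403659 to 48414726), Treml2 (ENSMUSG00000071068, 48438864 to 48451859), Trem2 (ENSMUSG00000023992, 48485726 to 48493472) and Treml1 (ENSMUSG00000023993, 48499241 to 48506499). The adaptors were neighbours on chromosome 7, with Tyrobp (ENSMUSG00000030579, 31198807 to 31202596) on the + strand and Hcst (ENSMUSG00000064109, 31202732 to 31204873) on the − strand. Tyrobp and Hcst ended 135 bases apart without overlap, and no annotated gene overlapped any member. Strand information was not kept in these libraries, and a read can be placed by position only. Tyrobp RPKM was 61.95 to 143.7 times Hcst RPKM over all libraries. Whether Tyrobp transcripts running past the annotated end added reads to Hcst was not tested.

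The 3 coding stretches below are shown because they carry what sets the members apart: the codon changed by T96K, and the tyrosine codons (in capitals) through which each adaptor signals. Codon 96 of Trem2, in capitals in the first stretch, is the reference codon for threonine; it lies in exon 2 of 5, the exon of the immunoglobulin-like domain, at chr17:48488027-48488029. The Tyrobp stretch joins exons 4 and 5 and holds tyrosine codons 92 and 103, and the Hcst stretch joins exons 3 and 4 and holds tyrosine codon 72. All are reference sequence on the coding strand, read 5′ to 3′ from mm9.
Trem2 codon 96, chr17:48487997-48488059: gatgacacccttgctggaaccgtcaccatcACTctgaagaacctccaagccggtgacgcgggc
Tyrobp motif, within chr7:31200677-31202413: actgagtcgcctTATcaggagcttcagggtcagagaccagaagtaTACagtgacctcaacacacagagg
Hcst motif, within chr7:31202828-31203119: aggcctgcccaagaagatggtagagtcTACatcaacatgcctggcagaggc

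The promoters of Trem2, Treml2 and Hcst, which rose in 5xFAD females, are shown as the 250 bases before each annotated start, since each of these genes was called higher against NonTg. Each was searched on both strands for GAGGAA, a sequence bound by PU.1, an ETS factor of myeloid cells. Matches are in capitals, and read TTCCTC where they lie on the opposite strand. Among 22367 promoters of coding genes of the same length, 5155 (23%) held it, and it was present in 5 of the 7 member promoters searched. Trem2 had 1 match, starting 40 bases before the start, Treml2 had 1, at 127 bases, and the letters were not in the Hcst or Treml1 window. A match is a description of the sequence and not a measured binding site, and a window without these letters is not shown to lack one.
Trem2, chr17:48485476-48485725, + strand: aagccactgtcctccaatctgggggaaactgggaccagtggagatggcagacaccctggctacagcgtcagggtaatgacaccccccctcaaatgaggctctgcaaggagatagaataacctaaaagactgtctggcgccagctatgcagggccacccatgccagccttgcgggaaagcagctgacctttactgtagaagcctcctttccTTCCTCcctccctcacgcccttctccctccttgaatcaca
Treml2, chr17:48438614-48438863, + strand: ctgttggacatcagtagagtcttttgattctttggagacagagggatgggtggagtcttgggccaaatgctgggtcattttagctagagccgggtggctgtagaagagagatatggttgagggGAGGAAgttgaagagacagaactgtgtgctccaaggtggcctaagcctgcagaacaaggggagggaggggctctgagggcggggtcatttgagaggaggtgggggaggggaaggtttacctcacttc
Hcst, chr7:31204874-31205123, − strand: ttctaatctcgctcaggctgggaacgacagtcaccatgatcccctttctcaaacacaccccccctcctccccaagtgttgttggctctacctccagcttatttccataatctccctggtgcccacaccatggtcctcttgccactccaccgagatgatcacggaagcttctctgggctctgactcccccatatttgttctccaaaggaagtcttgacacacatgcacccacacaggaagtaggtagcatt

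Within the cluster, Trem2 dominated. It made up 97.2% ± 2.45 (SD, n = 5) of the summed RPKM of the 6 receptors in NonTg females, and between 97.29% and 98.87% in each of the 22 female 5xFAD libraries. The lowest share in any library, 93.06%, was that of NonTg library 24, which also had the highest Trem1 and Trem3 of its group. Treml2 came next: Trem2 exceeded it 108-fold ± 39.97 (SD, n = 5) in NonTg and 66.4-fold to 81.7-fold in the means of the female 5xFAD groups. Treml1, directly downstream of Trem2, stayed at a mean of 0.33 to 0.52 RPKM in every group of both tables.

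**Figure D1:**
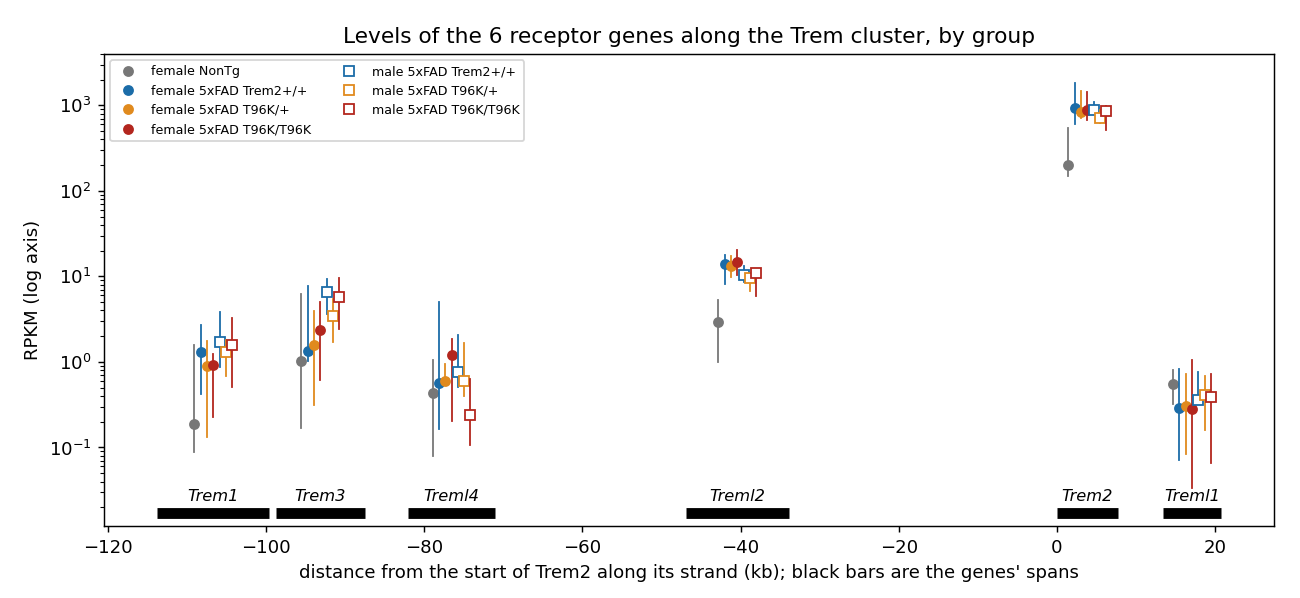
RPKM of the 6 receptor genes (log axis) against their place in the cluster, as distance in kb from the start of Trem2. Points are group medians, filled circles for females and open squares for males, lines span the lowest to the highest library above 0, and groups are shifted sideways to be visible; Trem2 and Treml2 are the genes whose NonTg line lies apart from the female 5xFAD lines.

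Trem2 stood at 161, 198, 148, 539 and 398 RPKM in NonTg libraries 4, 10, 24, 28 and 30, of which 28 and 30 belong to the higher depth set. In female 5xFAD it ranged from 609 to 1831 (median 940, n = 6) with Trem2+/+, from 702 to 1457 (median 836, n = 9) with T96K/+ and from 677 to 1449 (median 876, n = 7) with T96K/T96K. Every 5xFAD library was above every NonTg library, and the 5xFAD genotypes overlapped. How many of all tested genes have NonTg and 5xFAD ranges apart was not counted, here or for the members below. On the log2(RPKM + 1) scale Trem2 was 1.996 ± 0.298 (SE) higher in Trem2+/+ than in NonTg, or 3.99-fold, with an adjusted p of 2.66e-05 (limma). The change was 1.82 ± 0.27 in T96K/+ (adjusted p = 3.38e-05) and 1.89 ± 0.29 in T96K/T96K (adjusted p = 4.38e-05, limma).

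Tyrobp was the most abundant member. Its NonTg values were 944, 1053, 883, 3437 and 2323 RPKM in the same library order, so the libraries of the higher depth set were again above the other 3. In female 5xFAD its range was 4022 to 17057 (median 7746) with Trem2+/+, 4737 to 15465 (median 6698) with T96K/+ and 5262 to 17834 (median 7248) with T96K/T96K. No 5xFAD library fell within the NonTg range. Tyrobp was 2.55 ± 0.40 higher on the log2 scale in Trem2+/+ than in NonTg, a 5.84-fold difference (adjusted p = 4.85e-05, limma). It was 2.31 ± 0.37 higher in T96K/+ and 2.55 ± 0.39 higher in T96K/T96K (adjusted p = 6.83e-05 and 3.92e-05, limma).

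Hcst was far scarcer than Tyrobp, and the part of Tyrobp transcripts in the Hcst reads was not tested. NonTg libraries had 9.30, 12.7, 6.40, 37.1 and 24.5 RPKM, resting on as few as 55 reads. The female 5xFAD ranges were 51.1 to 222 (median 95.6) with Trem2+/+, 66.3 to 181 (median 77.3) with T96K/+ and 61.6 to 164 (median 96.5) with T96K/T96K, all above NonTg. The fitted rise of Hcst was the largest of the members in each comparison with NonTg, at 2.64 ± 0.36 on the log2 scale in Trem2+/+, a 6.22-fold difference (adjusted p = 8.42e-06, limma). In T96K/+ it was 2.43 ± 0.33 and in T96K/T96K 2.65 ± 0.35 (adjusted p = 9.55e-06 and 6.34e-06, limma). The 95% intervals of the Hcst, Tyrobp and Trem2 rises overlapped.

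**Figure D2:**
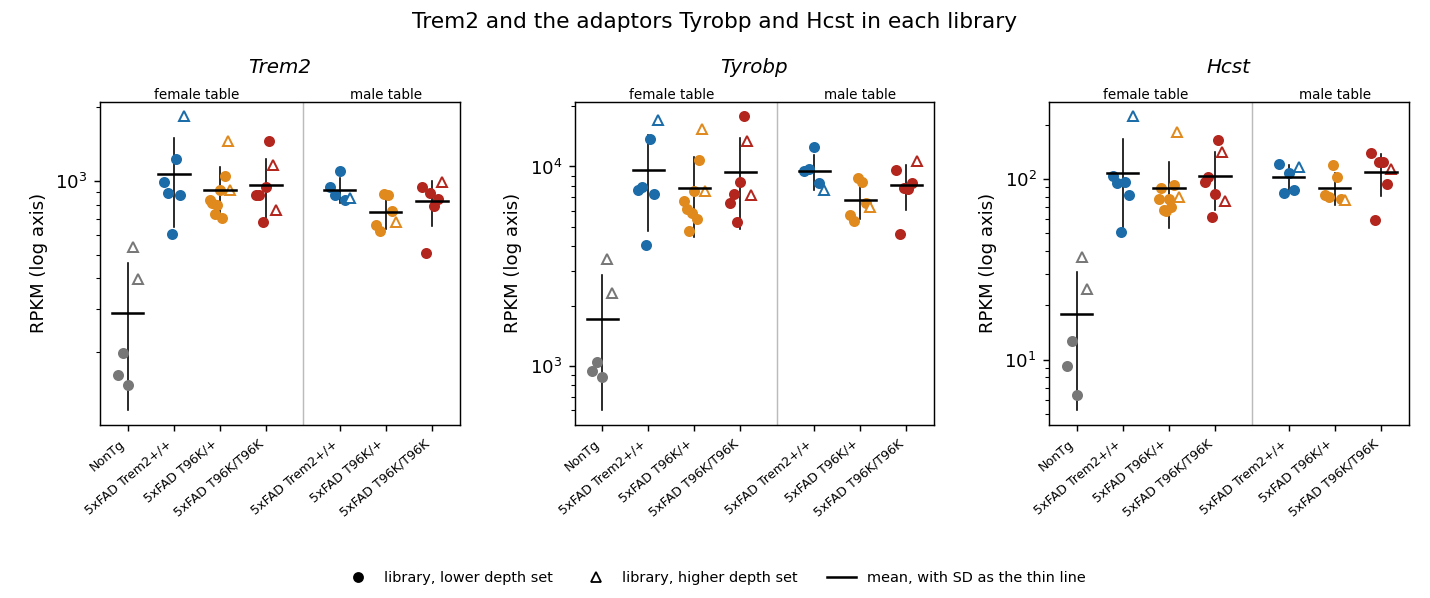
RPKM (log axis) of Trem2, Tyrobp and Hcst in every library, by genotype, with the female and male tables apart. Circles are libraries of the lower and open triangles of the higher depth set, bars are means and thin lines SDs; the NonTg libraries lie below every female 5xFAD library for each of the 3 genes, and the 2 NonTg triangles lie above the 3 NonTg circles.

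Treml2 (TLT-2), a receptor-like member of the cluster found on B cells, neutrophils and macrophages, was far lower than Trem2 but separated the groups as well. NonTg libraries had 1.01, 3.12, 1.89, 5.28 and 2.91 RPKM. Female 5xFAD libraries ranged from 8.24 to 17.96 (median 13.8) with Trem2+/+, from 9.76 to 17.4 (median 13.3) with T96K/+ and from 10.3 to 20.4 (median 14.8) with T96K/T96K. NonTg and 5xFAD did not overlap. Treml2 had the smallest adjusted p of the members, with a rise of 1.97 ± 0.22 on the log2 scale in Trem2+/+ (adjusted p = 4.77e-07, limma). The rise was 1.97 ± 0.20 in T96K/+ and 2.10 ± 0.22 in T96K/T96K (adjusted p = 1.41e-07 and 1.26e-07, limma). Summed B cell markers were 129 to 470 RPKM in NonTg and 161 to 544 in female 5xFAD, and none of the 3 tested of 6 was called; their part in the Treml2 result was not tested.

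Of the 7 members tested in females, 4 were thus called higher and 0 lower in each comparison with NonTg. Over all 14591 genes tested, 23.6% were called between Trem2+/+ and NonTg (13.5% higher, 10% lower), 17.3% between T96K/+ and NonTg (10.3% higher, 7.07% lower) and 15.3% between T96K/T96K and NonTg (10.3% higher, 5.05% lower). The median change of all genes was 0.0379, 0.0295 and 0.0250 on the log2 scale, beside member medians of 1.97, 1.82 and 1.89. These comparisons share the NonTg libraries. The p-values measure the spread between libraries, and the labels do not say outright that each library is 1 mouse.

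Markers of some other cell types moved with the same contrast, while each group held libraries of both depth sets. All 6 endothelial markers (Cldn5, Pecam1, Kdr, Cdh5, Tek and Flt1) were called lower in Trem2+/+ than in NonTg, 5 of 6 in T96K/+ and 1 of 6 in T96K/T96K. Their summed RPKM was 508 to 1225 in NonTg against 187 to 409, 159 to 641 and 319 to 929 in the 5xFAD groups, and none was at 0 in any group. With the endothelial score as a covariate, the rises in Trem2+/+ were 1.31 for Trem2, 1.74 for Tyrobp, 1.72 for Hcst and 1.49 for Treml2 on the log2 scale, with adjusted p of 0.029, 0.0404, 0.0112 and 0.000867 (limma). In the T96K genotypes the 4 genes were called under that covariate as well, with Trem2 at 1.30 and 1.55, Tyrobp at 1.70 and 2.15, Hcst at 1.74 and 2.20 and Treml2 at 1.60 and 1.87. Quantile normalization gave 1.51, 1.39 and 1.62 for Tyrobp and 1.398, 1.299 and 1.333 for Trem2 in the order Trem2+/+, T96K/+ and T96K/T96K, all called. In the lower depth set alone, with 3 NonTg libraries, the rises of Trem2, Tyrobp, Hcst and Treml2 in Trem2+/+ were 2.41, 2.97, 3.05 and 2.20. Without both NonTg libraries of the higher depth set they were 2.58, 3.17, 3.29 and 2.28. The microglia markers summed to 1623 to 2959 in the NonTg libraries of the lower depth set and to 4978 and 5719 in NonTg libraries 30 and 28, against 1853 to 7122 in female 5xFAD; 1 of 7 (Aif1) was called higher in Trem2+/+ and 0 of 7 in the T96K groups. Border-associated macrophage markers summed to 42.4 to 106 in NonTg and 12.2 to 55.9 in female 5xFAD, with 1 of 6 called lower in each genotype. Beyond the fits with the endothelial covariate, the part of these marker lists in the result was not tested. In bulk RNA, fewer cells of a type and less RNA per cell cannot be told apart.

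The ratio of adaptor to receptor also set NonTg apart. Tyrobp exceeded Trem2 5.85, 5.31, 5.98, 6.38 and 5.84 times in NonTg libraries 4, 10, 24, 28 and 30, a mean of 5.87 ± 0.38 (SD, n = 5). In female 5xFAD the ratio was 8.68 ± 1.60 (n = 6) with Trem2+/+, 8.28 ± 1.35 (n = 9) with T96K/+ and 9.41 ± 1.86 (n = 7) with T96K/T96K. The lowest of the 22 ratios was 6.48, just above the highest NonTg ratio, that of library 28, which also had the highest NonTg Trem2. In males the ratio was 10.3 ± 0.98, 9.10 ± 0.56 and 9.73 ± 0.75. The ratio of Tyrobp to Hcst overlapped between all groups, at 102 ± 21.2 in NonTg and 90.8 ± 26.5, 87.4 ± 14.96 and 89.0 ± 15.2 in the female 5xFAD groups. These ratios are descriptions without a test, and Tyrobp transcripts counted as Hcst were not tested for.

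**Figure D3:**
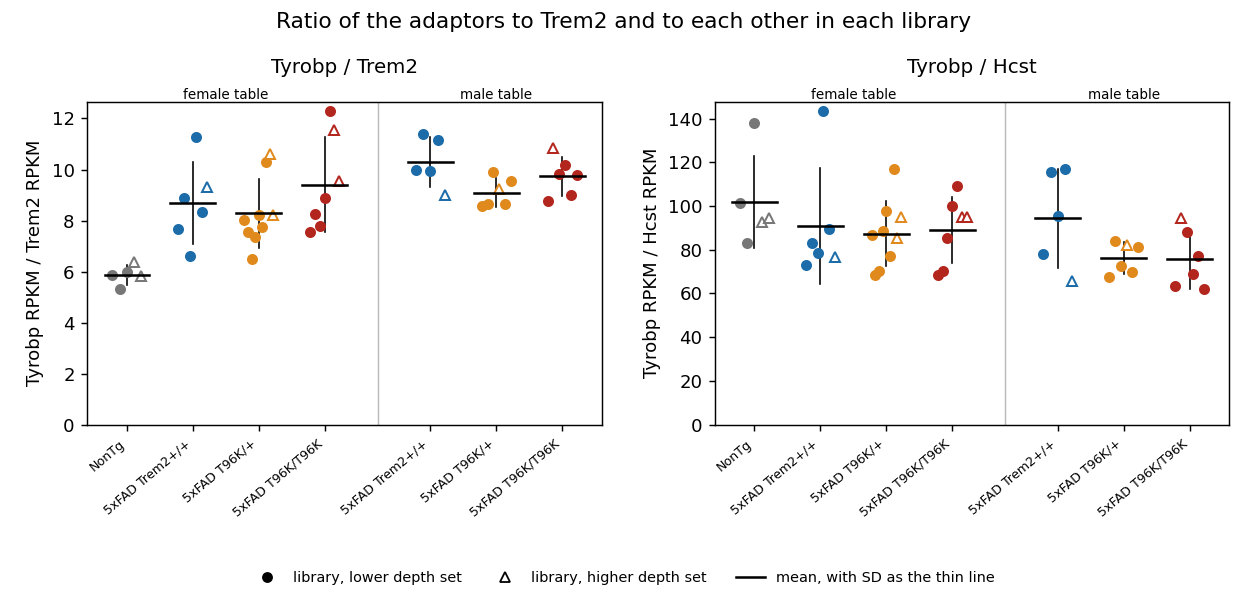
Ratio of Tyrobp to Trem2 RPKM and of Tyrobp to Hcst RPKM in each library (linear axes from 0), with means as bars and SDs as thin lines. The 5 NonTg ratios of Tyrobp to Trem2 lie between 5.31 and 6.38, below all female 5xFAD libraries, while the ratios of Tyrobp to Hcst overlap.

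The other receptors were scarce. Trem1, an activating receptor of neutrophils and monocytes that amplifies inflammation, had 0.0885, 0.187, 1.58, 0.174 and 0.202 RPKM in NonTg, where all but library 24 held 5 to 22 reads. In female 5xFAD it ranged from 0.423 to 2.73 (median 1.31) with Trem2+/+, 0.133 to 1.76 (median 0.885) with T96K/+ and 0.228 to 1.23 (median 0.911) with T96K/T96K. NonTg library 24 lay within the Trem2+/+ and T96K/+ ranges and above the whole T96K/T96K range, and the other 4 NonTg libraries were below every Trem2+/+ and T96K/T96K library. Trem1 missed the call between Trem2+/+ and NonTg (0.76 ± 0.29 on the log2 scale, adjusted p = 0.0554, limma), and was called without NonTg library 24 (0.99, adjusted p = 0.0167), without Trem2+/+ library 1 (0.86, 0.043) and without Trem2+/+ library 14 (0.90, 0.0246). It was also called with limma voom on the recovered reads (2.54, adjusted p = 0.00962).

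Trem3, in mice an activating receptor of macrophages, had 0.554, 1.75, 6.19, 0.170 and 1.03 RPKM in NonTg. The female 5xFAD ranges were 1.02 to 7.82, 0 to 3.94 and 0.610 to 4.98 in the order Trem2+/+, T96K/+ and T96K/T96K, so all groups overlapped. Its changes against NonTg were 0.30 ± 0.46, 0.0082 ± 0.43 and 0.54 ± 0.45 on the log2 scale (adjusted p = 0.687, 0.993 and 0.443, limma). Neutrophil markers varied widely between the same libraries. NonTg library 24 had the highest summed neutrophil markers of its group (2766 RPKM over 8 genes), Trem2+/+ library 25 those of its group (6134) and T96K/+ library 26 those of its group (2022), and each had its group's highest Trem3. In female T96K/T96K, library 9 had the highest Trem3 (4.98 RPKM, neutrophil sum 1916) and library 27 the highest neutrophil sum (5422, Trem3 4.51 RPKM). T96K/+ library 18, with no Trem3 read, had the lowest neutrophil sum of all libraries, 33.3 RPKM. In males, Trem3 was lowest in T96K/+ library 3 (1.73 RPKM, neutrophil sum 1733) and highest in T96K/T96K library 5 (9.49 RPKM, neutrophil sum 8276). Within male T96K/+, however, library 22 had the highest Trem3 (5.42 RPKM) with a neutrophil sum of 3198, below the group's highest sum of 3689. The neutrophil list ranged from 99.02 to 2766 in NonTg, 421 to 6134, 33.3 to 2022 and 1084 to 5422 in the female 5xFAD groups, and none of its 8 genes was at 0 in a whole group; none of the 8 was called in any comparison with NonTg. Monocyte markers summed to 36.3 to 149.6 RPKM in NonTg and to 13.5 to 223 in female 5xFAD. Of its 6 genes, Ms4a4c was called higher and Fn1 lower in Trem2+/+, Ms4a4c higher in T96K/T96K and 0 in T96K/+. Their part in Trem1 and Trem3 was not tested.

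Treml4, which in mice binds dying cells and supports Toll-like receptor 7 signalling, had 0.436, 0.650, 1.05, 0.0944 and 0.0797 RPKM in NonTg. In female 5xFAD it ranged from 0.165 to 5.04 with Trem2+/+, from 0 to 0.957 with T96K/+ and from 0.203 to 1.87 with T96K/T96K. Libraries 2, 8, 17 and 18 of T96K/+ held 0 reads. A count of 0 allows up to 3 reads, by counting error only, which is at most 0.251 RPKM of Treml4 in any library. No comparison with NonTg was called for Treml4 (0.51, −0.0468 and 0.46 on the log2 scale, adjusted p = 0.285, 0.945 and 0.351, limma).

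Treml1 (TLT-1), a receptor of platelets, passed the filter of at least 1 RPKM in at least 5 libraries in neither table and was not tested. It had 0.353, 0.559, 0.318, 0.813 and 0.572 RPKM in NonTg and at most 1.05 in female 5xFAD, from 0 to 22 reads. NonTg lay within the 5xFAD range. Summed platelet markers were 22.5 to 33.4 RPKM in NonTg and 7.49 to 94.3 in female 5xFAD, and Gp6 was at 0 in all NonTg and all Trem2+/+ females. Of the 6 platelet markers 2 were tested, and Gp9 was called lower in each comparison with NonTg.

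**Figure D4:**
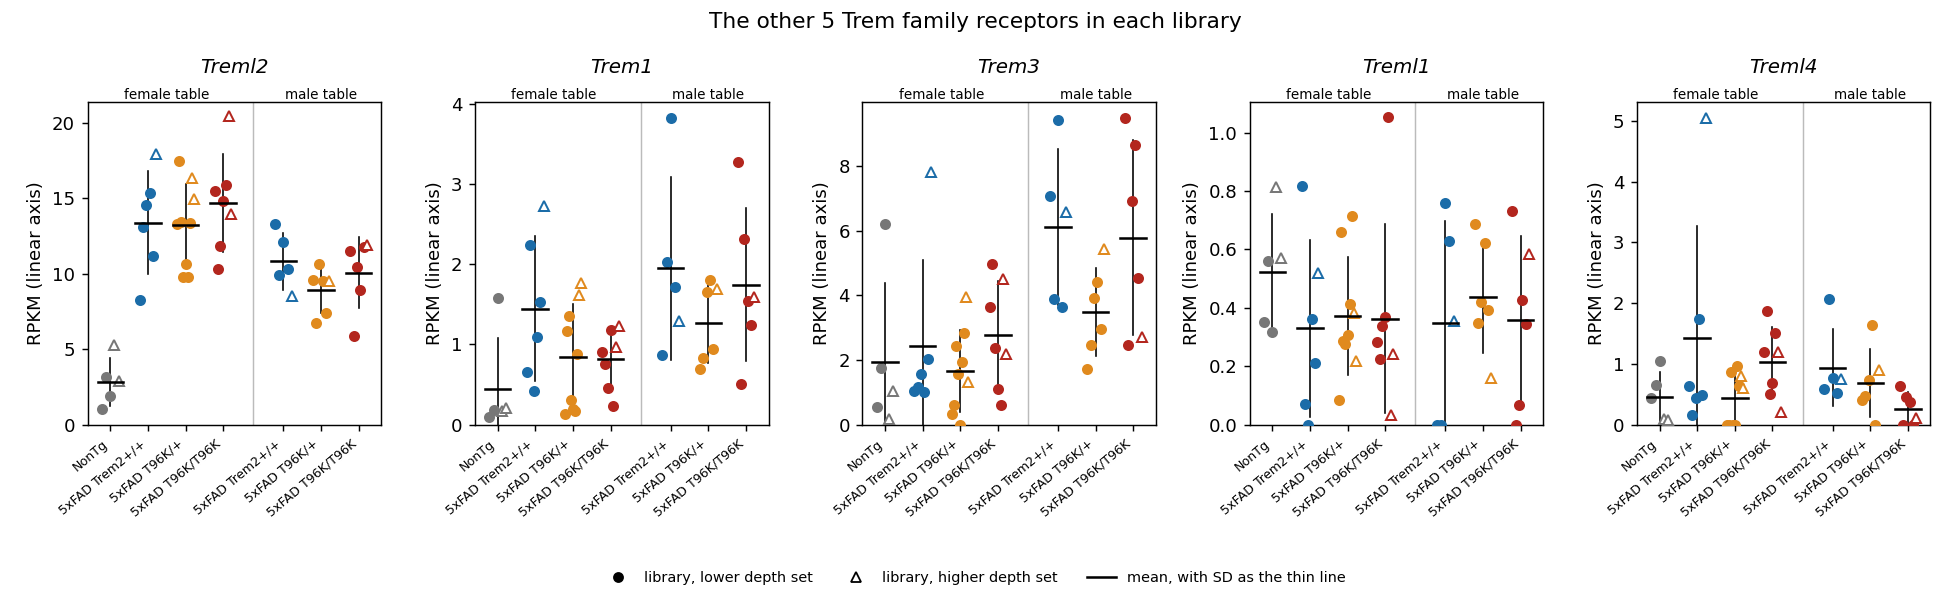
RPKM (linear axes from 0, each on its own scale) of the other 5 receptors in every library, with circles for the lower and open triangles for the higher depth set, bars for means and thin lines for SDs, cut at 0. Treml2 is the gene whose NonTg libraries lie apart from female 5xFAD; single libraries, such as Trem2+/+ 25 for Trem3 and Treml4, stand far above their groups.

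Whether T96K changed the family was asked within 5xFAD mice. In females, 0 of 7 members were called between T96K/+ and Trem2+/+ and 0 of 7 between T96K/T96K and Trem2+/+, where 0% of 14591 genes were called in either comparison. At an unadjusted p under 0.05, 523 and 544 genes passed, none of them a member, and limma voom called 0 members as well. Trem2 differed by −0.18 on the log2 scale in T96K/+ (95% interval −0.71 to 0.36) and by −0.11 in T96K/T96K (−0.67 to 0.45). Tyrobp differed by −0.24 (−0.96 to 0.47) and by 0.0033 (−0.75 to 0.76), and Hcst by −0.21 (−0.85 to 0.44) and by 0.0086 (−0.67 to 0.69). Treml2 had the narrowest intervals, −0.40 to 0.39 and −0.29 to 0.55 around −0.0053 and 0.13. These intervals include no change and leave room for a change in either direction.

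In males, Trem2 stood at 945, 875, 1098, 833 and 851 RPKM with Trem2+/+, at 623 to 881 (median 718) with T96K/+ and at 508 to 984.8 (median 867) with T96K/T96K. Tyrobp stood at 9439, 9761, 12520, 8291 and 7647 with Trem2+/+, at 5342 to 8728 (median 6416) with T96K/+ and at 4578 to 10663 (median 8047) with T96K/T96K. The groups overlapped for both genes, and the T96K/+ group had the lowest mean. The change in T96K/+ against Trem2+/+ was −0.31 for Trem2 (95% interval −0.63 to 0.02) and −0.48 for Tyrobp (−0.91 to −0.06; unadjusted p = 0.0283, adjusted p = 0.366, limma). All 6 tested members had a negative value in that comparison, from −0.66 (Trem3) to −0.20 (Hcst), and 0 were called, as were 0% of 13845 genes (1703 at an unadjusted p under 0.05, and 0 by limma voom). Summed endothelial markers had medians of 622 RPKM in T96K/+ and 226 in Trem2+/+ (ranges 184 to 722 and 201 to 551), monocyte markers 66.9 and 101 (45.8 to 95.6 and 89.95 to 121) and neutrophil markers 2893 and 4130 (1733 to 3689 and 2326 to 6849). No gene of these lists was called or at 0 in a whole group. Beyond a fit with the endothelial score as covariate, which called 0 members, their part in the member values was not tested.

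With T96K/T96K against Trem2+/+ in males, Trem2 differed by −0.18 (95% interval −0.50 to 0.15), Tyrobp by −0.26 (−0.69 to 0.17), Hcst by 0.04 (−0.36 to 0.45) and Treml2 by −0.11 (−0.45 to 0.23). Of 6 members 0 were called, beside 0% of all genes (1193 at an unadjusted p under 0.05, and 0 by limma voom). Hcst stood at 121, 83.4, 108, 86.7 and 116 RPKM with Trem2+/+, at 76.5 to 120 (median 80.5) with T96K/+ and at 59.4 to 139 (median 118) with T96K/T96K. Treml2 stood at 13.3, 9.91, 12.1, 10.3 and 8.49, at 6.73 to 10.6 (median 9.52) and at 5.85 to 11.9 (median 10.98) in the same order. T96K/T96K library 6 was the lowest of its group for Trem2, Tyrobp, Hcst, Trem1, Trem3 and Treml2. Endothelial markers summed to 793 RPKM in that library, the highest of the male libraries.

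The scarce receptors were likewise not called in males. Trem1 had means of 1.95 ± 1.14, 1.27 ± 0.50 and 1.75 ± 0.95 RPKM (SD) in Trem2+/+, T96K/+ and T96K/T96K, and Trem3 had 6.12 ± 2.41, 3.48 ± 1.36 and 5.78 ± 3.01. Treml4 (0.94 ± 0.64, 0.69 ± 0.56 and 0.26 ± 0.27) and Treml1 (0.35 ± 0.35, 0.44 ± 0.19 and 0.36 ± 0.29) did not pass the filter and were not tested. Between T96K/T96K and T96K/+, all tested members had positive values in both sexes, 0.0389 to 0.53 in females and 0.13 to 0.52 in males. Under quantile normalization Trem1 in females and Trem2 in males were negative. In this comparison 0 members were called (0% of all genes in each sex, 514 and 342 at an unadjusted p under 0.05). The T96K/+ libraries also entered the comparison with Trem2+/+, where every tested member was negative in both sexes. The signs of these comparisons are thus not independent. No difference between the sexes in the T96K effects was called among the 6 members tested in both tables. Female minus male effects lay between −0.08 and 0.36 for T96K/+ and between −0.27 and 0.37 for T96K/T96K, with lowest adjusted p of 0.941 and 0.915 (limma; 0% of 13636 genes called, 643 and 760 at an unadjusted p under 0.05).

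**Figure D5:**
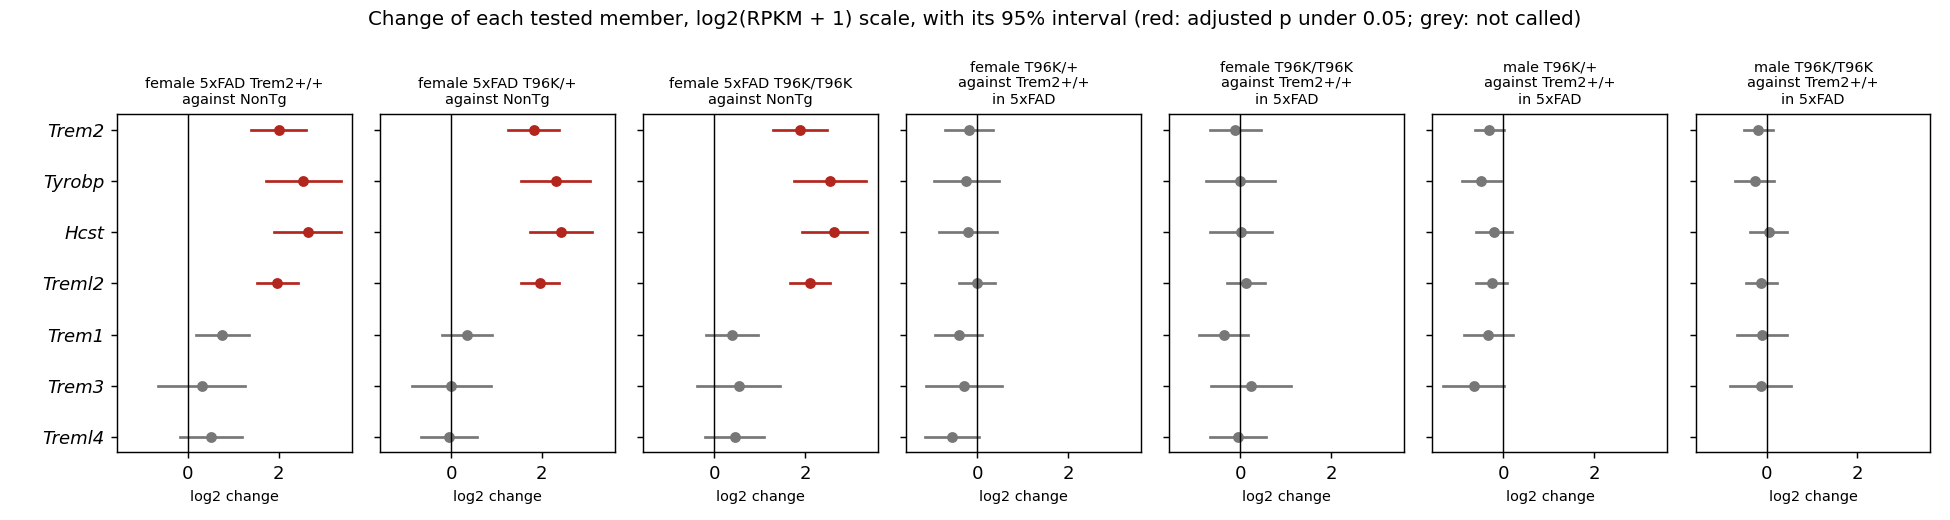
Change of each tested member in 7 comparisons on the log2(RPKM + 1) scale (points) with 95% intervals (lines), red where the adjusted p was under 0.05. Trem2, Tyrobp, Hcst and Treml2 are red in each comparison with NonTg, and no member is red between Trem2 genotypes within 5xFAD; Treml4 was tested in females alone.

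Trem2 and its adaptors varied together among libraries of the same genotype. Over deviations from genotype means in the 5xFAD libraries of the lower depth set, Trem2 and Tyrobp had a Pearson r of 0.976 in females (n = 17, Spearman rho 0.968) and 0.973 in males (n = 14, rho 0.969), each with a permutation p of 1e-05, the smallest that 100000 resamples can give. Adjusted over 3 pairs in 2 tables these became 2e-05 for r and 3e-05 for rho. Trem2 and Hcst had r = 0.886 and rho = 0.767 in females (permutation p = 1e-05 and 0.00056, adjusted 2e-05 and 0.00112) and r = 0.868 and rho = 0.78 in males (permutation p = 0.00017 and 0.00136, adjusted 0.000204 and 0.00181). Tyrobp and Hcst had r = 0.834 and rho = 0.718 in females (permutation p = 9e-05 and 0.00151, adjusted 0.000135 and 0.00181) and r = 0.826 and rho = 0.705 in males (permutation p = 0.00042 and 0.00639, adjusted 0.00042 and 0.00639). Without the 2 libraries farthest from the median, r was 0.954 and 0.944 for Trem2 and Tyrobp, 0.76 and 0.722 for Trem2 and Hcst, and 0.784 and 0.654 for Tyrobp and Hcst. Over all 5xFAD libraries the rank correlation of Tyrobp and Hcst in males was 0.478 (n = 17, permutation p = 0.0536). Values of 1 library share its RNA and its scaling. For pairs with Hcst, the part of Tyrobp transcripts in the Hcst reads was not tested.

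The genes most like Trem2 by the same measure, out of 9646 genes in females, were Tyrobp, C1qc, Npc2, C1qa and Ftl1, with r from 0.976 to 0.96. C1qa and C1qc encode chains of the complement protein C1q, Npc2 a lysosomal cholesterol carrier and Ftl1 ferritin light chain. In males, out of 9622 genes, they were C1qa, Cd37, Blnk, Tyrobp and Cd300ld (0.981 to 0.971). Tyrobp and C1qa were among the first 5 in both tables. For Tyrobp the first 5 were Trem2, Npc2, C1qb, Rpl10a and Cst7 in females (0.976 to 0.958) and Bri3bp, Trem2, C1qa, H2-DMa and Csf2ra in males (0.978 to 0.957). Hcst came at place 65 in females and 288 in males in likeness to Trem2. Treml2 followed Trem2 in males (r = 0.843, n = 14) and much less in females (r = 0.185, n = 17, place 3737). Trem3 had r = 0.854 with Trem2 in males (place 369) and −0.391 in females. These differences between the tables were not tested. These are descriptions over few libraries.

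Other receptors that use Tyrobp or Hcst, and the signalling genes below them, were taken from lists of 11 and 22 genes. In females 2 of 8 tested receptors were called higher and 0 lower in each 5xFAD genotype against NonTg. Over all genes 13.5%, 10.3% and 10.3% were called higher in the order Trem2+/+, T96K/+ and T96K/T96K. Cd200r4, a mouse activating receptor of the CD200 receptor family that pairs with Tyrobp, was at 0.0620 to 3.47 RPKM (median 0.327) in NonTg and at 16.6 to 51.4, 14.4 to 47.2 and 13.7 to 27.6 in the 5xFAD groups. Its rise was 3.94 ± 0.33, 3.74 ± 0.30 and 3.61 ± 0.31 on the log2 scale (adjusted p = 7.41e-09, 3.94e-09 and 1.27e-08, limma), larger than that of any member. Cd300lb, a lipid-binding receptor that also pairs with Tyrobp, was at 0.207 to 1.47 RPKM in NonTg and rose by 1.61 ± 0.23, 1.28 ± 0.21 and 1.30 ± 0.22 (adjusted p = 1.61e-05, 0.000107 and 0.000172, limma). Neither gene reached the filter's 1 RPKM in every NonTg library, so both passed it only with 5xFAD libraries, where they were higher. The filter thus favoured a rise for these genes, which limits their calls. Both belong to families of similar genes, and the counting of reads shared between copies is not stated here. The median change of the tested receptors was 0.56, 0.19 and 0.41.

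Of the 22 signalling genes 21 were tested, and 1, 2 and 1 were called higher (over all genes 13.5%, 10.3% and 10.3%) and 0 lower. Grb2, an adaptor that links receptor phosphotyrosines to Ras, rose in each 5xFAD genotype by 0.47 ± 0.10, 0.32 ± 0.09 and 0.34 ± 0.09 (adjusted p = 0.000708, 0.0124 and 0.0113, limma). Ptpn6, the phosphatase SHP-1, was called in T96K/+ (0.77 ± 0.26, adjusted p = 0.0365, limma), and its values in Trem2+/+ and T96K/T96K were 0.74 and 0.63 (adjusted p = 0.0538 and 0.113). No comparison between these genotypes called it. The list's median change was 0.20, 0.18 and 0.07.

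Among 6 genes for ligands of the Trem receptors and for the proteases that shed Trem2, 0 were called higher against NonTg. In the order Trem2+/+, T96K/+ and T96K/T96K, 2, 2 and 1 were called lower. Over all genes 13.5%, 10.3% and 10.3% were called higher and 10%, 7.07% and 5.05% lower. Apoe, a lipid carrier that binds Trem2, was named after its values were seen. It stood at 374 to 735 RPKM (median 679) in NonTg and at 762 to 15220 (median 1123), 505 to 12950 (median 2275) and 622 to 15730 (median 4991) in the 5xFAD groups. All Trem2+/+ libraries were above NonTg, the T96K groups overlapped with it, and its changes of 1.75, 2.18 and 2.49 on the log2 scale missed the call (adjusted p = 0.17, 0.0718 and 0.0524, limma). Apoe spread widely within each 5xFAD genotype, so the order of the medians is no result about T96K. The relation of this spread to library number and depth set was not tested. Clu (clusterin), an apolipoprotein that binds Trem2, fell by 1.66, 1.58 and 1.34 on the log2 scale (SE 0.39, 0.36 and 0.38; adjusted p = 0.00307, 0.00309 and 0.0163, limma), from 98.9 ± 51.5 RPKM in NonTg to 28.1 ± 10.1, 31.1 ± 15.7 and 37.1 ± 21.2. Pglyrp1, a peptidoglycan-binding protein and ligand of Trem1, fell by 1.03 and 0.87 (SE 0.32 and 0.29, adjusted p = 0.0196 and 0.0399, limma) in Trem2+/+ and T96K/+. The endothelial markers given above fell in the same comparisons, and their part in these falls was not tested. Between Trem2 genotypes within 5xFAD, 0 genes of the 3 lists were called in either sex.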

How the data were processed

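PolyA RNA of brain cells sorted for CD11b and CD45 was made into libraries with SMART-Seq v4 and Nextera XT, per the labels' protocols. Reads were aligned to mm9 with STAR, per the labels, and the submitters' processing notes also name HTSeq and edgeR, without versions or roles. The authors deposited RPKM, scaled separately in a female table of 27 and a male table of 17 libraries. Every value was a whole number of reads within 0.01, so reads were recovered from RPKM and gene length. The main fit used limma 3.58.1 (R 4.3.3; trend, robust) on log2(RPKM + 1) within each table, over genes that reached 1 RPKM in 5 or more libraries, and called an adjusted p (Benjamini-Hochberg) under 0.05. Sex differences were fitted over both tables. Correlations used 100000 permutations (Python 3.11.15, scipy 1.17.1). A division at 20 M reads separated the depth sets, which no label names. Alternatives were another pseudocount, no filter, quantile normalization, limma voom on recovered reads, the depth set as covariate or alone, and leaving out each library; scaling to total reads, the endothelial score as covariate and leaving out both NonTg libraries of the higher depth set were added after seeing the data. The members and lists were chosen with earlier results of these data known. All members are named, and of the pathway lists the called genes, at most 4 per list. Gene positions came from the mm9 annotation, which held 37168 of 37583 IDs. The fit was tested on simulated data. RPKM differences understate changes of low genes on this log scale, and limits for a count of 0 cover counting error only. A marker gene and a promoter are not reported here.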

Additional observations from a re-analysis of the deposited data

Results flagged for a closer look

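Dixon's test of the most extreme library was run in 56 groups of values (8 genes in 7 groups) and marked 6. Chance flags about 1 in 20 groups. In female T96K/+, library 26 had the highest Hcst, 181.08 RPKM from 2812 reads, where the others lay between 66.3 and 92.3; it belongs to the higher depth set. In female NonTg, library 24 had the highest Trem1, 1.5752 RPKM from 74 reads, where the others lay between 0.0885 and 0.202. In female 5xFAD Trem2+/+, library 25 had the highest Trem3, 7.8238 RPKM from 265 reads, where the others lay between 1.02 and 2.03; it too belongs to the higher depth set. In female T96K/T96K, library 21 had the highest Treml1, 1.0537 RPKM from 13 reads, where the others lay between 0.0336 and 0.367. In male T96K/T96K, library 6 had the lowest Trem2, 508.25 RPKM from 13551 reads, where the others lay between 788 and 984.8. In male 5xFAD Trem2+/+, library 2 had the highest Treml4, 2.067 RPKM from 31 reads, where the others lay between 0.512 and 0.771.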

How the results depend on the processing

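The rises of Trem2, Tyrobp, Hcst and Treml2 against NonTg kept their call under each alternative run. Of 582 member changes under the alternatives 549 kept direction and call and 3 became called, all Trem1 in Trem2+/+ against NonTg (pseudocount 0.1, 1.80; limma voom, 2.54; depth set as covariate, 0.85); 30 changes that were not called changed sign. With 1 library left out, 711 of 771 kept both, 3 became called and 57 changed sign. The cause was not tested.

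Signs changed against NonTg for Trem3 in Trem2+/+ (−0.43 in the lower depth set, −0.0749 with the endothelial covariate, −0.11 without both NonTg libraries of the higher depth set) and Treml4 in Trem2+/+ (−0.0624 and −0.0949 under the first 2). Trem3 in T96K/+ became −0.0156 with pseudocount 0.1, −0.0873 with quantile normalization, −0.55 in the lower depth set, −0.17 scaled to total reads, −0.28 with the endothelial covariate, −0.40 without both NonTg libraries and −0.0303 without library 22. Against Trem2+/+ in female T96K/+, Treml2 became 0.0033 with voom, 0.0106 in the lower depth set, 0.0271 scaled to total reads, 0.11 with the endothelial covariate and 0.0418 without library 22, and Hcst 0.0179 with the endothelial covariate. In female T96K/T96K, Treml4 became 0.072 (pseudocount 0.1), 0.37 (lower depth set) and 0.26 (endothelial covariate), Trem2 0.0598 and 0.24 under the last 2, and Tyrobp −0.10 and Hcst −0.0925 with the depth covariate. Trem1 between the female T96K genotypes became −0.0315 (quantile) and −0.033 (without library 22). In males, Hcst in T96K/T96K became −0.0394 (quantile), Trem3 0.0555 (lower depth set), and Trem2 between the T96K genotypes −0.0081 (quantile).

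Leaving out 1 library gave −0.0189 to 0.70 for Trem3 and 0.62 to 0.99 for Trem1 in Trem2+/+ against NonTg, −0.24 to 0.41 for Trem3 and −0.15 to 0.0857 for Treml4 in T96K/+ against NonTg, and in female T96K/+ against Trem2+/+ −0.13 to 0.0816 for Treml2, −0.39 to 0.0268 for Hcst and −0.43 to 0.0271 for Trem3. In female T96K/T96K against Trem2+/+ it gave −0.22 to 0.20 for Tyrobp, −0.18 to 0.24 for Hcst, −0.21 to 0.26 for Treml4 and −0.25 to 0.0625 for Trem2, and against T96K/+ −0.038 to 0.13 for Trem1 and −0.0391 to 0.15 for Trem2. In male T96K/T96K against Trem2+/+ it gave −0.0354 to 0.21 for Hcst, −0.24 to 0.0983 for Trem1, −0.28 to 0.0359 for Trem3 and −0.19 to 0.021 for Treml2.

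Counts over all genes moved more: with the endothelial covariate 424, 576 and 1049 genes were called against NonTg, beside 3438, 2530 and 2236, and total-read scaling gave 4158 and 4459 for the T96K genotypes. Without NonTg library 4 the counts were 1555 for T96K/+ and 1436 for T96K/T96K, and without NonTg library 24 the T96K/+ count was also lower by over 1.5 times. Within 5xFAD, the counts of 0 became at most 3. No paired analysis was possible because library numbers are unique within each table, and the same number in both sexes names different libraries. Depth limits Trem1, Trem3, Treml1 and Treml4, which rested on few reads in many libraries.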
